A study of Homo sapiens with 24 samples.

Results

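The 6 neuroectoderm libraries in which the human enhancer HAR123 had been replaced by its chimpanzee or its mouse ortholog were compared, pooled as one side, with the 3 neuroectoderm libraries in which HAR123 had been deleted. These 9 libraries were chosen by their labels, out of 24 in the series. All cells were H9, a human embryonic stem cell (hESC) line, and all but the hHAR123 cells had been edited with CRISPR. In HAR123-KO cells both copies of HAR123 were missing, in cHAR123 cells the chimpanzee sequence and in mHAR123 cells the mouse sequence stood in its place, and hHAR123 cells were left unedited. Neuroectoderm had been made from hESCs (day 0) over 5 days in knockout serum replacement medium with Noggin, which blocks bone morphogenetic protein (BMP) signals, and SB431542, which blocks the receptors of activin, nodal and TGF-β. Each genotype and stage had 3 RNA-seq libraries. A pair of independent clones of each genotype was used for RNA-seq, so the 3 libraries of a group cannot each stand for a clone of its own. Which library came from which clone was not given, and the p-values measure the spread among these libraries, which may be technical in part. Each genotype had clones of its own, so effects of the sequence at HAR123 and of the clones cannot be told apart.

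HAR123 lies in an intron of SMG6 on the short arm of chromosome 17. Enhancers of this kind are stretches of noncoding DNA that raise the transcription of genes elsewhere on the chromosome. In the early ectoderm, cells with little BMP and WNT signal form the anterior neural plate, the source of forebrain and eye. Cells at its edge, where BMP and WNT signals are stronger, form the neural plate border, from which neural crest and roof plate arise. The comparison describes how neuroectoderm from clones with an ortholog in place of the human sequence differed from neuroectoderm from clones with no HAR123.

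The 9 libraries held 22303658 to 25978892 counts each (median 24032592). Levels are given as CPM, a gene's counts relative to all counts of its library. The libraries of one genotype lay close together, and cHAR123 and mHAR123 libraries lay closer to each other (mean distance 56.8 over log2 CPM of all expressed genes) than to the HAR123-KO libraries (97.6 and 95.5), with 50.3 to 51.6 between libraries of the same genotype. The labels of cHAR123 and mHAR123 in neuroectoderm differed between the sources. Average levels listed in the supplementary gene lists for cHAR123 matched the columns labelled mHAR123 within 0.1% for 117 of 117 genes, and matched the columns labelled cHAR123 for 2. For the list of mHAR123, 114 of 114 genes matched the columns labelled cHAR123, and 2 matched their own. Under the labels of the columns, genes that differed most between cHAR123 and mHAR123 in neuroectoderm differed in the same direction in hESCs, as described below for H4C13, TCEAL5 and ALG10B. Pooling makes the comparison with HAR123-KO independent of this, and values of a single replacement are given below by the label of the column.

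Of 21830 genes tested, 777 (3.56%) were higher in the replacements than in HAR123-KO and 791 (3.62%) were lower. Here and below a gene was called higher or lower where the adjusted p of edgeR's quasi-likelihood test was under 0.01 and the log2 fold change over 1 in size. The median log2 fold change over all genes tested was -0.00117. At an unadjusted p under 0.05 by edgeR 11212 genes differed, and the share of genes whose sides did not overlap is not given here. Separation without overlap in a named gene is therefore only a description of its values. Genes of the forebrain and eye field were higher in the replacements, with 11 of 17 tested members called and none lower (1 lower when the replacement genotypes were averaged with equal weight). Genes of the neural crest (9 of 11 lower, none higher) and the neural plate border (11 of 17 lower, 3 higher) were lower. The lists were chosen with earlier results of these data known, so these counts describe the lists and do not test them. In bulk RNA, fewer cells of a type and less RNA per cell cannot be told apart. The plot of log2 fold changes by list shows all 24 lists.

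**Figure D1:**
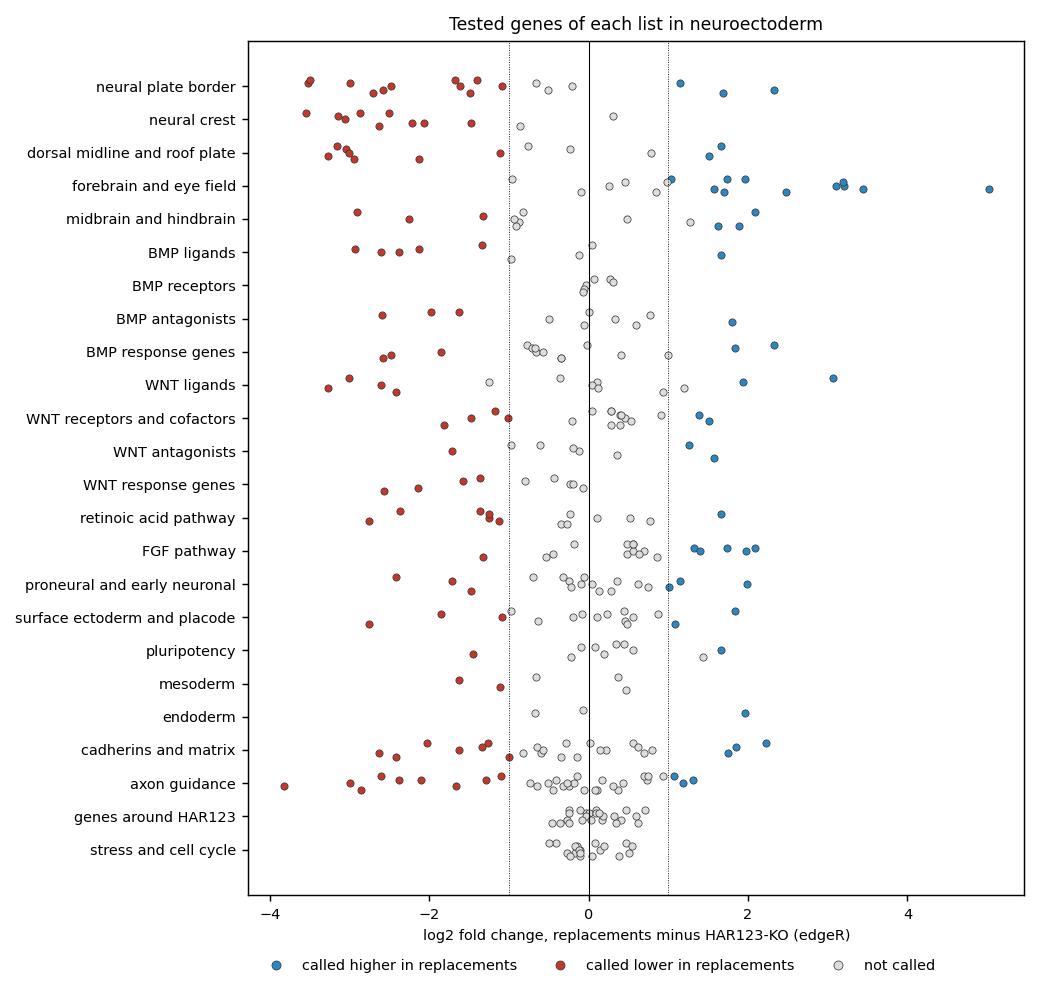
Log2 fold change (replacements minus HAR123-KO, edgeR, x axis) of each tested gene in 24 lists of genes (y axis). Blue points were called higher in the replacements, red points lower, and grey points were not called, with dotted lines at a change of 1 in either direction. The neural crest list has 9 red and no blue points, the forebrain and eye field list 11 blue and no red points, and the lists of BMP receptors and of genes around HAR123 hold grey points alone.

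Neural crest cells are migratory cells that leave the dorsal neural tube and give rise to peripheral neurons, glia and pigment cells. FOXD3, a transcription factor that specifies the neural crest (GRCh38 chr1:63322567-63325128, plus strand), stood at 188, 188 and 187 CPM in the HAR123-KO libraries, and at a lowest of 12.6, a median of 14.6 and a highest of 21.7 CPM in the 6 replacement libraries. All 3 HAR123-KO libraries were above all 6 replacement libraries, a difference of 11.7-fold (log2 fold change -3.55, SE 0.092, adjusted p 1.16e-18 by edgeR). The unedited cells held 2.5 ± 0.202 CPM (SD, n = 3). SOX10, which maintains crest progenitors and their glial derivatives, was at 329, 323 and 329 CPM in HAR123-KO and between 33.8 and 54.7 CPM in the replacements (median 45.5). Its log2 fold change was -2.87 (SE 0.104, adjusted p 4.39e-16 by edgeR). The replacements were thus lower without overlap, and hHAR123 was lower still at 11.9 ± 0.326 CPM (SD, n = 3).

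ETS1, a factor of the cranial crest, was at 211, 218 and 219 CPM in HAR123-KO, against 19.5, 23.6 and 31.4 CPM as the lowest, median and highest replacement value (log2 fold change -3.14, SE 0.089). SNAI2, a repressor of cadherin genes during the departure of crest cells from the epithelium, was at 65.7, 66.3 and 67.4 CPM in HAR123-KO, against 5.92, 7.74 and 11.0 CPM (log2 fold change -3.06, SE 0.109). Neither gene had a replacement library within reach of the HAR123-KO values. The other called members were ERBB3, a neuregulin receptor, at -2.63, MEF2C at -2.51, the endothelin receptor EDNRB at -2.21, the neurotrophin receptor NGFR at -2.06 and SOX8 at -1.48 on the log2 scale. SOX9 (log2 fold change -0.87) and SNAI1 (0.30, with overlapping groups) were not called, and TWIST1, PRDM6 and LTK had too few counts to be tested. The median over the 11 tested members was -2.51.

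The neural plate border genes with the largest differences were PAX7, TFAP2B, TFAP2C and TFAP2A. PAX7, a paired box factor that marks the border before crest forms, was at 127, 121 and 125 CPM in HAR123-KO and at 9.48, 10.8 and 12.3 CPM as the lowest, median and highest value in the replacements, 11.5-fold lower (log2 fold change -3.52, SE 0.054, adjusted p 2.52e-22 by edgeR). TFAP2B, an AP-2 factor of border and crest, was at 347, 343 and 353 CPM in HAR123-KO, against 24.9, 31.1 and 36.3 CPM (log2 fold change -3.50, SE 0.078). Both were far apart between the sides, with levels in hHAR123 of 1.89 ± 0.0802 and 6.18 ± 0.370 CPM (SD, n = 3). The AP-2 genes TFAP2C (log2 fold change -2.99) and TFAP2A (-2.70), the BMP-induced homeobox genes MSX2 (-2.58) and MSX1 (-2.48), and ZIC4 (-1.68), ZIC1 (-1.61), PAX3 (-1.40) and DLX3 (-1.08) were also lower. ZIC2 (-0.51), ZIC5 (-0.67) and PRDM1 (-0.21) were not called. DLX5 (2.33), DLX6 (1.68) and HES4 (1.15) went the other way. DLX5 and DLX6 were low in both sides, with at most 1.43 CPM in a replacement library, whereas HES4, a Notch pathway repressor, was at 36.6, 36.9 and 36.6 CPM in HAR123-KO and at 74.7 to 86.4 CPM in the replacements.

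**Figure D2:**
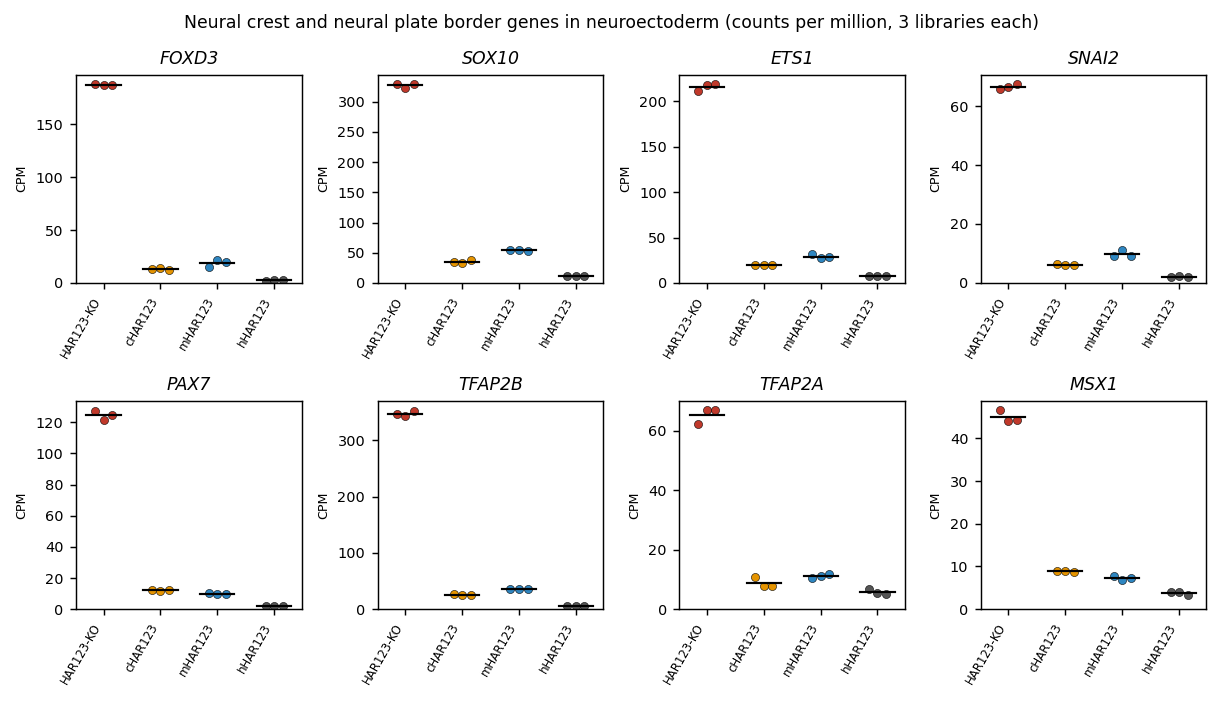
Levels in CPM (y axes, from 0) of 8 neural crest and neural plate border genes in the neuroectoderm libraries of 4 genotypes (x axes), with 1 point per library and a black line at the mean of 3. In each panel the 3 HAR123-KO libraries lie above all cHAR123 and mHAR123 libraries, which in turn lie above the mean of hHAR123, as in FOXD3 with means of 188 CPM in HAR123-KO, 13.1 in cHAR123, 18.9 in mHAR123 and 2.5 in hHAR123.

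The dorsal midline of the neural tube, or roof plate, is a source of BMP and WNT signals. Of 12 tested roof plate genes 7 were lower in the replacements and 2 higher, with a median log2 fold change of -1.62. WNT1, a ligand of the dorsal midline and of the border between midbrain and hindbrain, was at 136, 138 and 138 CPM in HAR123-KO, against 13.4, 16.7 and 21.2 CPM in the replacements (log2 fold change -3.01, SE 0.088). LMX1B, a LIM homeodomain factor of the same regions, was at 90.5, 82.2 and 84.4 CPM against 9.31, 10.7 and 11.2 CPM (log2 fold change -3.04, SE 0.052). The sides of both genes were separated without overlap. WNT3A (-3.27), OLIG3 (-3.15), RSPO3 (-2.95), GDF7 (-2.13) and PDGFC (-1.12) were the other lower members, and LMX1A (-0.76) and RSPO1 (0.79) were among those not called. RSPO2, which strengthens WNT signals at the receptor, was higher in the replacements, at 30.3 to 33.5 CPM against 10.7, 10.7 and 11.7 CPM in HAR123-KO (log2 fold change 1.51). BMP6 was also called higher, at under 1 CPM in every library of both sides.

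In contrast, the regulators of forebrain and eye were higher in the replacements. NR2E1, also called TLX, an orphan nuclear receptor that keeps forebrain progenitors dividing (GRCh38 chr6:108166022-108188805, plus strand), was at 0.646, 0.499 and 0.450 CPM in HAR123-KO, and at a lowest of 14.6, a median of 17.8 and a highest of 19.9 CPM in the replacements, 32.6-fold higher (log2 fold change 5.03, SE 0.176, adjusted p 2.57e-16 by edgeR). FEZF2, a zinc finger repressor of the anterior neural plate, was at 7.24, 7.20 and 6.58 CPM in HAR123-KO against 72.9, 76.4 and 81.2 CPM (log2 fold change 3.45, SE 0.059, adjusted p 1.08e-21 by edgeR). For both, every replacement library was above every HAR123-KO library and below every hHAR123 library. The unedited level was 24.9 ± 0.958 CPM for NR2E1 and 87.8 ± 1.63 CPM for FEZF2 (SD, n = 3). The replacements differed from it by log2 fold changes of -0.48 for NR2E1 (adjusted p 0.000259 by edgeR) and -0.17 for FEZF2 (adjusted p 0.00361 by edgeR), under the size required for a call. Its paralog FEZF1 was at 8.96, 7.78 and 9.15 CPM against 60.3, 73.8 and 90.5 CPM (log2 fold change 3.11). RAX, needed for the eye field, was at 0.775, 0.208 and 0.695 CPM against 4.26, 5.00 and 6.66 CPM (log2 fold change 3.20, SE 0.246).

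LHX5 (log2 fold change 2.47), LHX9 (1.97), SIX3 (1.74), EMX2 (1.70), LHX2 (1.57) and OTX2 (1.03) were among the other higher members. Of these, LHX5, a LIM homeodomain factor that restrains WNT signals in the anterior plate, was at 20.7, 19.1 and 19.2 CPM in HAR123-KO and at 103, 110 and 112 CPM in the replacements. OTX2, the homeobox gene of forebrain and midbrain, was already high in HAR123-KO, at 260, 254 and 258 CPM, and was at 502, 528 and 552 CPM in the replacements. Among those not called were PAX6 (0.98, adjusted p 1.26e-12 by edgeR, under the size required), OTX1 (0.84), HESX1 (0.46), DMRTA2 (-0.10) and VAX1 (-0.96), and SIX6, TBX3 and NKX2-1 had too few counts to be tested. PAX6 and OTX2 also belonged to a set of general neuroectoderm markers. Of its other members, SOX2 was at 159, 157 and 158 CPM in HAR123-KO against 479, 498 and 525 CPM (log2 fold change 1.66, SE 0.037). HES5, a Notch target of neural progenitors, was at 21.3, 21.2 and 19.0 CPM against 160, 168 and 175 CPM (3.03, SE 0.046). SOX1 (1.30) and NES (1.15) were called higher too, CDH2 was not called, and SOX3 is not reported here.

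**Figure D3:**
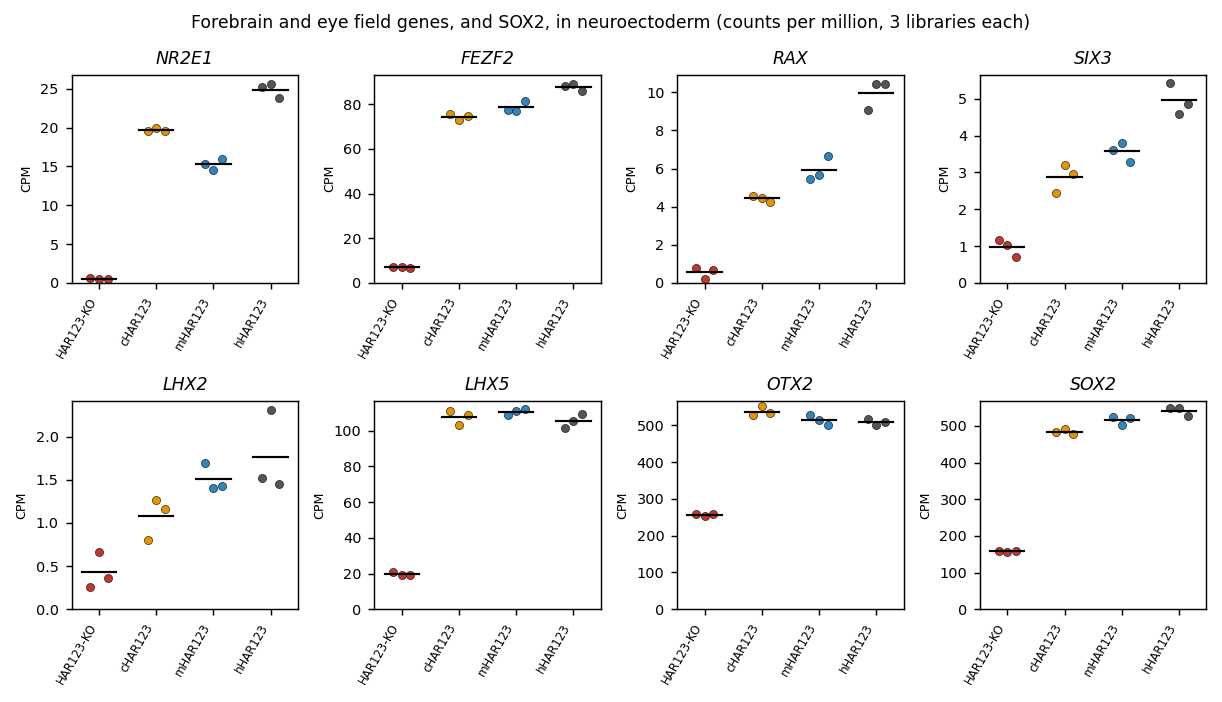
Levels in CPM (y axes, from 0) of 7 forebrain and eye field genes and of SOX2 in the neuroectoderm libraries of 4 genotypes (x axes), with 1 point per library and a black line at the mean of 3. The HAR123-KO libraries lie lowest in each panel, as for FEZF2 with a mean of 7.01 CPM against 74.4 in cHAR123, 78.6 in mHAR123 and 87.8 in hHAR123.

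The 250 bases before the start of FOXD3 and of NR2E1, the crest and the forebrain regulator with the largest differences, are shown so that the promoters behind these values can be read. They are from RefSeq, GRCh38.p14, at chr1:63322317-63322566 and chr6:108165772-108166021, both on the plus strand, with matches to TGACGTCA, the cyclic AMP response element, in capitals.
FOXD3: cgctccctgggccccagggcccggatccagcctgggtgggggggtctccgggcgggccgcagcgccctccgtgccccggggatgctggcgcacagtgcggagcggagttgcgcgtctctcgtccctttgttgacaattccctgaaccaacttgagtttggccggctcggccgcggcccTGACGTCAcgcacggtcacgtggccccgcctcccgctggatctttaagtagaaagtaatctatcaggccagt
NR2E1: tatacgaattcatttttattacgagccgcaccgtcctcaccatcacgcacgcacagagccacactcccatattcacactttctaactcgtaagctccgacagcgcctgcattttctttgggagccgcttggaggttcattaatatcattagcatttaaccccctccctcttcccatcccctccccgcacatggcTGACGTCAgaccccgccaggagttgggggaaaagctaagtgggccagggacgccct
Each held 1 match to TGACGTCA, which was found in 1.77% of 27305 promoter windows of this length and in 2.78% of the 12992 windows of tested genes. The motif was singled out after these sequences had been seen. No match was present in either window to GCCNNNGGC, bound by AP-2 factors, to GGCGCC, a GC-rich SMAD motif, or to TAATTA, a homeodomain motif. All 4 motifs read the same on both strands, and none overlapped another in these windows. TGACGTCA was in 3.22% of 435 windows of genes called higher and in 1.19% of 505 windows of genes called lower. GCCNNNGGC was in 30.6% and 22.6% of them, against 27.2% of tested genes. The median GC content of the windows was 66.8% for genes called higher, 61.6% for genes called lower and 64.8% for tested genes. A match is a string of letters, not a bound site.

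Beyond the lists, the 12 largest differences in each direction were ranked among called protein-coding genes that averaged 5 CPM or more in the higher side and did not overlap between the sides. Those higher in the replacements were ZNF717 (log2 fold change 7.85), NR2E1 (5.03), BARHL2 (4.34), LRRC3B (4.00), ST8SIA6 (3.78), GRIK3 (3.71), HES3 (3.56), FEZF2 (3.45), IGFN1 (3.38), DMRTA1 (3.34), RASSF10 (3.31) and KCNQ3 (3.27). BARHL2 is a homeodomain factor of the diencephalon, GRIK3 a kainate receptor subunit, HES3 a repressor that keeps progenitors undifferentiated and KCNQ3 a potassium channel subunit. GRIK3 was at 6.68, 6.53 and 7.93 CPM in HAR123-KO and at 86.7, 93.7 and 97.2 CPM in the replacements. DMRTA1, a doublesex-related factor, was at 7.41, 7.99 and 8.05 CPM against 73.3, 78.6 and 85.4 CPM. Both lay about as far apart as FEZF2.

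ZNF717, a zinc finger gene (GRCh38 chr3:75678660-75785583, minus strand), stood apart from these. It had 1, 5 and 2 counts in the HAR123-KO libraries, or 0.0431 to 0.208 CPM, and 25.5 to 28.8 CPM in the replacements. The gene has near-identical copies in the genome, so its counts are uncertain. Its log2 fold change was 8.63 without HAR123-KO replicate 2, which held the 5 counts, and 7.49 without HAR123-KO replicate 1. In hESCs its mean was 0.0559 CPM in HAR123-KO and 19.2 CPM in the replacements.

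The 12 largest differences toward HAR123-KO were PRSS56 (-4.66), RELN (-3.83), CPED1 (-3.70), HDC (-3.59), KANK4 (-3.55), FOXD3 (-3.55), PAX7 (-3.52), TFAP2B (-3.50), ECEL1 (-3.47), PDYN (-3.46), ABCC2 (-3.44) and EDNRA (-3.36). RELN, the secreted glycoprotein reelin that guides migrating neurons, was at 193, 199 and 200 CPM in HAR123-KO and at 12.5, 14.2 and 15.3 CPM in the replacements (log2 fold change SE 0.044, adjusted p 2.89e-24 by edgeR). EDNRA, an endothelin receptor of cranial crest, was at 133, 134 and 138 CPM against 10.8, 13.2 and 15.5 CPM. PRSS56, a serine protease, was at 14.9, 15.9 and 14.8 CPM against 0.314, 0.546 and 1.04 CPM. In all 3 the replacement libraries kept a small part of the HAR123-KO level. PDYN encodes the precursor of dynorphin peptides, HDC the enzyme that makes histamine, and ABCC2 a membrane transporter.

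Among the BMP genes, several ligands were called. Of 9 ligands 5 were lower in the replacements and 1, BMP6, was higher (0 with mHAR123 libraries alone). None of 6 receptors was called, with log2 fold changes from -0.07 to 0.31. Over all genes tested 3.56% were called higher and 3.62% lower, so 0 of 6 does not set the receptors apart. BMP4, a ligand of dorsal ectoderm, was at 20.2, 20.1 and 20.97 CPM in HAR123-KO and at 2.16, 2.70 and 3.42 CPM in the replacements (log2 fold change -2.93, SE 0.094). BMP5 was at 34.8, 37.5 and 36.7 CPM against 5.58, 7.01 and 9.03 CPM (-2.39, SE 0.089), and GDF10 (-2.61), GDF7 (-2.13) and BMP2 (-1.35) were lower as well. BMP7 (-0.97) fell just short of the size required. Of 10 antagonists, which bind ligands outside the cell, SOSTDC1 (-2.60), NOG (-1.98) and BMPER (-1.63) were lower and NBL1 (1.80) was higher. Of 15 response genes, MSX2, MSX1 and GATA3 (-1.85) were lower, and DLX5 and GATA2 (1.83) higher. The ID genes, direct targets of SMAD proteins, were not called: ID1 was at -0.78, ID2 at -0.71, ID3 at -0.66 and ID4 at 0.99. ID3 was at 97.8, 94.4 and 99.1 CPM in HAR123-KO and at 56.3, 61.9 and 66.8 CPM in the replacements, apart but by less than the size required.

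Among the WNT genes, 4 of 13 ligands were lower in the replacements and 2 higher. Beside WNT1 and WNT3A, the lower ligands were WNT10B (-2.61) and WNT4 (-2.42). WNT8B, a ligand of the dorsal forebrain, was higher, at 31.0, 32.4 and 34.1 CPM against 3.79, 4.08 and 3.80 CPM (log2 fold change 3.06, SE 0.074), as was WNT5B (1.93). Of 17 receptors and cofactors, FZD10 (-1.82), FZD8 (-1.48), FZD1 (-1.17) and ROR1 (-1.01) were lower and FZD9 (1.51) and FZD2 (1.38) higher. Of 8 antagonists tested, SFRP1 (1.57) and SFRP2 (1.26), secreted proteins that bind WNT ligands, were higher and APCDD1 (-1.72) was lower. SFRP1 was at 212, 213 and 211 CPM in HAR123-KO and at 618, 632 and 638 CPM in the replacements. DKK1 was not called (-0.61, adjusted p 9.21e-05 by edgeR).

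Of 9 WNT response genes 4 were lower and none higher. NKD1, a feedback inhibitor of the pathway, was at 322, 319 and 310 CPM against 48.9, 52.8 and 59.0 CPM (log2 fold change -2.58, SE 0.038). SP5 (-2.14) and AXIN2 (-1.36), further feedback targets, were lower too, and RNF43 (-1.57) was called although 1 replacement library, at 1.17 CPM, lay within the HAR123-KO range. LEF1 (-0.80) was under the size required.

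**Figure D4:**
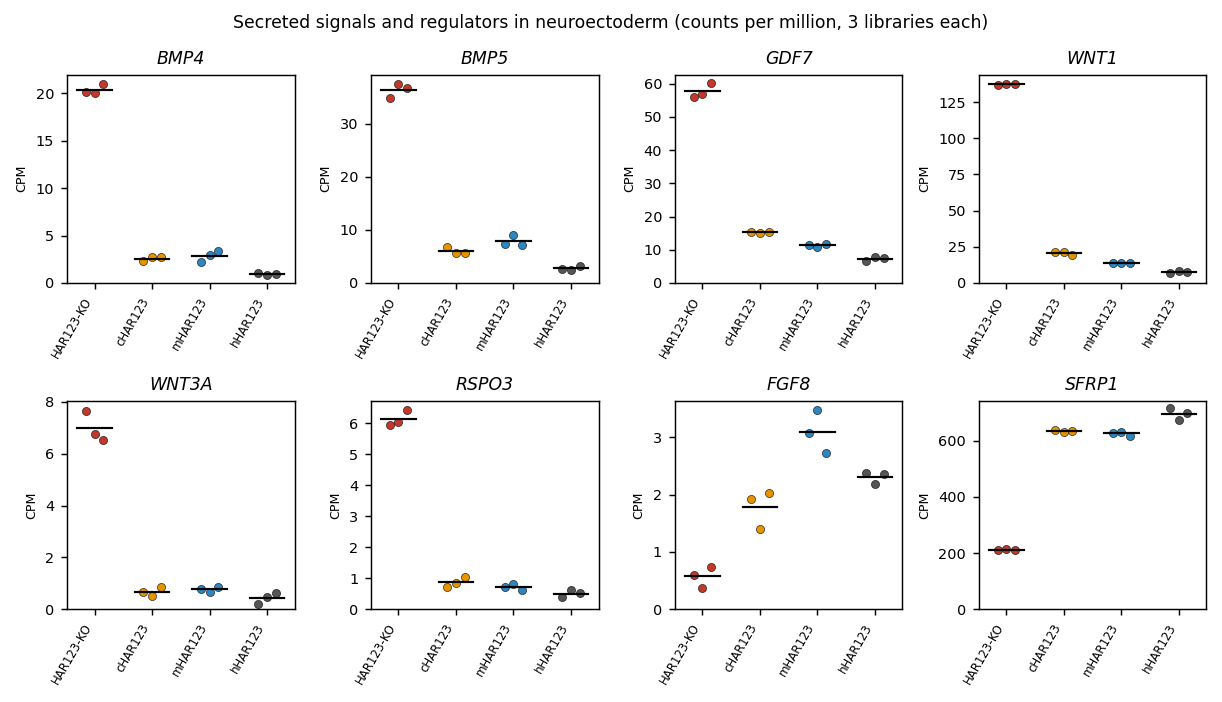
Levels in CPM (y axes, from 0) of 8 genes of secreted signals and regulators in the neuroectoderm libraries of 4 genotypes (x axes), with 1 point per library and a black line at the mean of 3. BMP4, BMP5, GDF7, WNT1, WNT3A and RSPO3 are highest in HAR123-KO, and FGF8 and SFRP1 lowest there, with SFRP1 at means of 212 CPM in HAR123-KO and 635, 626 and 696 CPM in cHAR123, mHAR123 and hHAR123.

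In the retinoic acid pathway, which posteriorizes neural tissue, 6 of 13 genes were lower and 1 higher. CRABP2, a carrier of retinoic acid to its receptors, was at 439, 436 and 427 CPM in HAR123-KO and at 77.6, 83.6 and 91.8 CPM in the replacements (log2 fold change -2.37, SE 0.045). STRA6, the cell surface receptor for retinol transport, was at 53.2, 51.9 and 53.0 CPM against 6.93, 7.81 and 8.47 CPM (-2.76, SE 0.057). CYP26C1 (-1.37), ALDH1A3 (-1.25) and RARG (-1.13) were also lower, and ALDH1A2 (1.66), a synthesizing enzyme, was higher at no more than 1.88 CPM. Of 17 tested FGF pathway genes 5 were higher, 1 was lower and 11 were not called. FGF8, a ligand of the anterior neural ridge, was at 0.603, 0.374 and 0.736 CPM against 1.39, 2.37 and 3.48 CPM (2.08, SE 0.305). ETV5 (1.98), ETV4 (1.74), SPRY2 (1.40) and SPRY1 (1.32), all induced by FGF signals, were higher, and FGF17 (-1.33), at under 1 CPM, was lower. FGF17 was not called under DESeq2 or with cHAR123 libraries alone.

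Other regions and cell types were less one-sided. Of 12 midbrain and hindbrain genes, EN1 (-2.91), PAX2 (-2.26) and FGF17 were lower and FGF8, PAX8 (1.89) and EGR2 (1.62) higher, and 8 listed genes, among them HOXA2, HOXB1, HOXB2 and HOXB3, had too few counts to be tested. The number lower was 2 under DESeq2 and with cHAR123 libraries alone, and 5 with mHAR123 libraries alone. Of 18 proneural and early neuronal genes, 3 were lower, NEUROG1 (-2.42) and POU4F1 (-1.71) among them, and DLL1 (1.98), NEUROG2 (1.14) and ELAVL4 (1.01) higher. POU4F1, the BRN3A factor of sensory neurons, was at 218, 220 and 215 CPM in HAR123-KO and at 64.4, 65.7 and 69.6 CPM in the replacements. DLL1, a Notch ligand, was at 60.3, 55.2 and 61.0 CPM against 222, 232 and 242 CPM. Both were separated without overlap, in opposite directions.

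Markers of other cell types the cultures could hold were mostly low or not called. For surface ectoderm and placode, EYA4 (-2.76), GATA3 and DLX3 of 16 tested genes were lower and GATA2 and PITX3 (1.09) higher, and TP63, KRT5, KRT14 and PITX1 had too few counts to be tested. The numbers lower and higher were 4 and 1 with cHAR123 libraries alone, and 2 and 2 with mHAR123 libraries alone. For pluripotency, SOX2 was higher and ZFP42 (-1.46) lower of 10, while POU5F1 (0.44) and NANOG (-0.10) were not called. POU5F1 was at 10.1 to 10.9 CPM in HAR123-KO and 12.9 to 16.0 CPM in the replacements, compared with a mean of 1092 CPM in the replacement hESCs. For mesoderm, PDGFRA (-1.63) and MEOX1 (-1.12) of 5 tested genes were lower and 7 had too few counts, TBXT, MIXL1 and EOMES among them. The number lower was 1 under DESeq2, with the replicate block and with mHAR123 libraries alone. For endoderm, GSC (1.96) of 3 was higher, though not with cHAR123 libraries alone, and SOX17, FOXA2, GATA4, GATA6 and AFP were among those with too few counts. None of 19 stress and cell cycle genes was called, near the share over all genes tested (3.56% higher and 3.62% lower).

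Adhesion and guidance genes followed in part. Of 24 cadherin and matrix genes 7 were lower and 3 higher. CDH6, a cadherin of crest and dorsal neural tube, was at 262, 267 and 262 CPM in HAR123-KO and at 42.9, 49.8 and 54.1 CPM in the replacements (log2 fold change -2.42, SE 0.041), and ITGA8 (-2.64), COL1A2 (-2.03) and ITGA4 (-1.63) were among the other lower members. CDH7 (2.23), CDH8 (1.85) and TNC (1.75) were higher. Of 33 axon guidance genes 9 were lower and 3 higher. NRP2, a receptor of semaphorins that steers crest streams, was at 510, 512 and 515 CPM against 56.8, 62.9 and 73.3 CPM, 8.01-fold lower, and SLIT1 (-2.86) and SEMA3C (-2.61) came next after RELN. EPHB2 (1.31), EPHA4 (1.19) and EPHA2 (1.07) were higher.

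None of the 24 tested genes around HAR123 was called, with a median log2 fold change of 0.06. Over all genes tested 3.56% were called higher and 3.62% lower, so this count does not set the 24 genes apart. SMG6, the host gene (GRCh38 chr17:2059839-2303785, minus strand), was at 184, 182 and 170 CPM in HAR123-KO and at 146, 149 and 157 CPM in the replacements, a log2 fold change of -0.25 (SE 0.031, adjusted p 6.64e-07 by edgeR) in which the sides did not overlap but the size required was not reached. HIC1, a repressor gene downstream whose counts may include SMG6 reads from the other strand, was at 0.603, 0.458 and 0.531 CPM in HAR123-KO and between 0.359 and 0.761 CPM in the replacements (log2 fold change -0.03, SE 0.31, adjusted p 0.952 by edgeR). The sides of HIC1 overlapped, and hHAR123 stood at 1.43 ± 0.447 CPM (SD, n = 3), from which the replacements differed by a log2 fold change of -1.41. The deletion itself is intronic and cannot be seen in exon counts.

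The replacements were then set beside hHAR123, with 102 of 21806 genes higher (0.468%) and 79 lower (0.362%), or 40 lower under DESeq2. This comparison uses the same 6 replacement libraries, so its values are given beside those above and not as a second test of them. The lists that were lower in the replacements than in HAR123-KO did not come down to the unedited level in all members. Of 11 neural crest genes 6 were called higher than in hHAR123 and none lower, with a median log2 fold change of 1.13, against -0.00715 over all genes tested. They were FOXD3 (2.71), SOX10 (1.94), SNAI2 (1.91), ETS1 (1.72), EDNRB (1.13) and ERBB3 (1.13). Of 17 border genes 4 were higher, PAX7 (2.54), TFAP2B (2.35), TFAP2C (1.37) and MSX1 (1.11), with a median of 0.43. RELN (2.48), KANK4 (2.47) and HDC (2.21) stood higher too. FOXD3 thus went from 2.5 CPM in hHAR123 to 13.1 in cHAR123, 18.9 in mHAR123 and 188 in HAR123-KO as means of 3 libraries.

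Of 16 forebrain and eye field genes tested against hHAR123 none was called in either direction. Over all genes tested 0.468% were called higher and 0.362% lower, so this count is near the overall share. The median log2 fold change of the 16 was -0.11, with values between -0.92 for RAX and 0.34 for OTX1. RAX was at 9.97 ± 0.768 CPM in hHAR123 (SD, n = 3), above the highest replacement library at 6.66 CPM. LHX5 (0.08) and OTX2 (0.07) lay near 0. BMP4 (1.55), GDF10 (1.39) and BMP5 (1.38) of 9 BMP ligands, and WNT4 (1.61) and WNT1 (1.22) of 13 WNT ligands, were higher than in hHAR123. DKK1 was called here (1.17) and not against HAR123-KO. No list had a member called lower than in hHAR123 other than HIC1, where 0.362% of all genes tested were called lower.

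Among themselves, the replacements differed in few genes. Of 21108 genes, 22 (0.104%) were higher in the columns labelled mHAR123 and 33 (0.156%) lower than in those labelled cHAR123. Under DESeq2 these were 7 and 7. H4C13, a replication-dependent histone gene with near-identical copies, was at 0.0800 to 0.224 CPM in cHAR123 and 37.0 to 38.8 CPM in mHAR123 (log2 fold change 8.03, SE 0.151), with 51.0 to 51.9 CPM in HAR123-KO and 31.2 to 35.8 CPM in hHAR123. The columns labelled cHAR123 stood apart in H4C13 in hESCs as well, at 1.27 to 2.10 CPM against 69.4 to 72.1 CPM in mHAR123. The same held for TCEAL5, at 0.196 to 0.258 CPM in cHAR123 hESCs and 8.92 to 9.10 CPM in mHAR123 hESCs. ALG10B was at 5.68 to 6.72 CPM in cHAR123 hESCs and 1.67 to 1.83 CPM in mHAR123 hESCs, higher in cHAR123 as in neuroectoderm. TCEAL5 (5.65) and the histone gene H3C11 (1.26) were the next higher in mHAR123, and ALG10B (-1.67), AGBL4 (-1.40) and HYDIN (-1.15) the largest in the other direction. None of these 6 genes was called between the pooled replacements and HAR123-KO. They were chosen for a difference within the pooled side, which widens its spread, so the missing calls say little. H4C13, for example, differed from HAR123-KO by a log2 fold change of -8.47 with cHAR123 libraries alone and -0.43 with mHAR123 libraries alone.

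At an adjusted p under 0.01 with no requirement of size, 557 genes (2.64%) were higher and 329 (1.56%) lower in mHAR123. By this rule 6 of 11 neural crest genes were higher in mHAR123 and none lower: SNAI2 (0.71), SOX10 (0.64), ETS1 (0.57), FOXD3 (0.55), NGFR (0.34) and ERBB3 (0.34). In the roof plate list 2 of 11 were lower in mHAR123, WNT1 (-0.58) and GDF7 (-0.40), and none higher. Among the WNT ligands, WNT4 (-1.02) and WNT2B (-0.87) were lower too. In the border list 2 genes were higher, TFAP2B (0.49) among them, and 1, ZIC1 (-0.65), was lower. SOX10 was at 35.4 CPM on average in cHAR123 and 54.2 CPM in mHAR123, whereas WNT1 was at 20.6 and 13.6 CPM. In HAR123-KO the mean of SOX10 was 327 CPM and that of WNT1 137 CPM, above both replacements. In the forebrain list 3 genes were higher in mHAR123, FEZF1 (0.54) among them, and NR2E1 (-0.34) and PAX6 (-0.24) were lower. Of those higher, 1 that is not reported by name here also reached the size required for a call.

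Finally, the difference between replacements and HAR123-KO in neuroectoderm was set against the same difference in hESCs, in one fit over 18 libraries with an interaction of side and stage. Of 23858 genes, 495 (2.07%) had a more positive difference in neuroectoderm and 752 (3.15%) a more negative one. Of the 24 genes with the largest differences, 17 were called by this test, all in the direction of their difference in neuroectoderm. These genes were chosen by their difference in the same neuroectoderm libraries, so the shared direction is not a second test of it. ETS1 was at a mean of 69.7 CPM in the replacement hESCs and 76.2 CPM in HAR123-KO hESCs, close together before differentiation and apart after it (interaction -2.99). GRIK3 was likewise at 8.80 and 8.28 CPM in hESCs (interaction 3.64), and SOX2 at 205 and 204 CPM (interaction 1.67). RELN, at 0.904 and 0.834 CPM in hESCs, was low in both before differentiation (interaction -3.90).

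Of the neural crest list, 9 of the 9 called members also had a called interaction in the same direction, and of the forebrain list 5 of 11. Those members had been called in the same neuroectoderm libraries, and the share over all called genes is not given here. The counts are therefore not a test of the lists, and the 2 lists are not to be compared by them. NR2E1 and FEZF2 were not called by the interaction (adjusted p 0.0419 and 0.211 by edgeR), as they had almost no counts in hESCs, where their means were under 0.03 CPM in both sides. The largest interactions in genes of at least 5 CPM were VWA2 (5.55), MYH2 (4.31) and LRRC3B (4.12) in one direction, and RSPO3 (-6.44), RAB7B (-5.58) and CPED1 (-4.84) in the other. VWA2 had no counts in the HAR123-KO neuroectoderm libraries, and RSPO3 and RAB7B none in the HAR123-KO hESC libraries, so these fitted values depend on the prior count and are not sizes of change. LRRC3B was at 4.27 and 4.54 CPM in hESCs, rose to 18.6 to 20.5 CPM in the replacement neuroectoderm libraries and was at 1.25, 1.21 and 1.19 CPM in HAR123-KO neuroectoderm. BARHL2 (4.90), PRSS56 (-5.06), TFAP2B (-1.88) and IGFN1 (-0.26) were not called by the interaction either, with means in hESCs of at most 0.161 CPM in either side. IGFN1 had no counts in the HAR123-KO hESC libraries, so its value is not a size of change either. ZNF717 was not called (interaction -0.39, adjusted p 0.744 by edgeR) and had its difference at both stages.

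**Figure D5:**
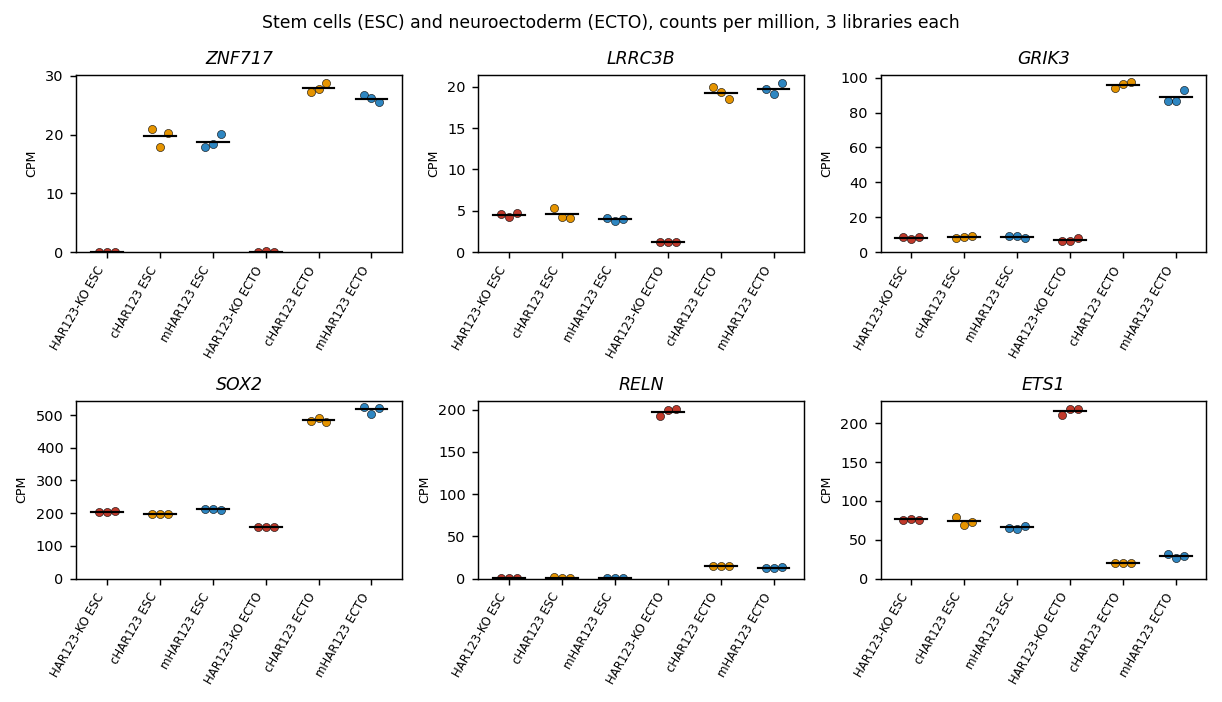
Levels in CPM (y axes, from 0) of 6 genes in hESC (ESC) and neuroectoderm (ECTO) libraries of HAR123-KO, cHAR123 and mHAR123 (x axes), with 1 point per library and a black line at the mean of 3. LRRC3B, GRIK3, SOX2, RELN and ETS1 lie close together in the hESCs of the 3 genotypes and apart in neuroectoderm, whereas ZNF717 is near 0 in HAR123-KO at both stages, at means of 0.0559 CPM in hESCs and 19.2 CPM in the replacement hESCs.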

How the data were processed

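Total RNA depleted of ribosomal RNA went into directional libraries, read at both ends. The authors used STAR 2.5.2b on GRCh38 and featureCounts (Subread) over Ensembl release 106 genes. The strand setting of the counting was not given in the sources used here, so overlapping genes on opposite strands are uncertain. The deposited table gives unscaled whole counts for every gene, and reads lost before counting cannot be seen. 

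1 entry, ANK2, was broken over 3 lines and left out, which leaves 61551 genes. Symbols came from GENCODE release 44. Counts were fitted with edgeR 4.0.16 in R 4.3.3: filterByExpr, TMM scaling, glmQLFit and glmQLFTest with Benjamini-Hochberg adjustment over all genes tested, with calls at an adjusted p under 0.01 where the log2 fold change exceeded 1 in size. Each SE was taken as the absolute log2 fold change over the root of F. The comparison with HAR123-KO held the 6 replacement libraries as one side and the 3 HAR123-KO libraries. Named genes were the 12 largest called differences per direction (protein-coding, at least 5 CPM on the higher side, no overlap), called members of the lists, HIC1 and SMG6, and the 3 largest per direction for stage and for mHAR123 against cHAR123; SOX1, NES and HES5 were markers of neuroectoderm. The members and lists were chosen with earlier results of these data known. Alternatives used DESeq2 1.42.0, other scaling and filters, single replacements, all 12 neuroectoderm libraries, a replicate block and the removal of each library. Replicate numbers did not pair the samples: correlations of same-numbered libraries were -0.018 to 0.043 over 9 pairs. Replicates differed by more than sampling noise (chi-square per degree of freedom 1.41 to 3.56), and all were kept as separate libraries. Promoter windows came from RefSeq, and figures were drawn with matplotlib 3.10.9. Some members of the lists are counted but not reported by name here.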

Additional observations from a re-analysis of the deposited data

Results flagged for a closer look

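For 21 of the genes named for the size of a difference, the difference between replacements and HAR123-KO itself differed between neuroectoderm and hESCs (interaction test, edgeR, adjusted p under 0.01 and log2 value over 1 in size). Among genes higher in the replacements the interaction was 4.12 for LRRC3B, 3.95 for ST8SIA6, 3.64 for GRIK3, 3.53 for HES3, 3.47 for DMRTA1, 3.38 for RASSF10 and 3.26 for KCNQ3. Among genes lower in the replacements it was -3.90 for RELN, -4.84 for CPED1, -4.10 for HDC, -3.98 for KANK4, -3.42 for FOXD3, -4.41 for PAX7, -3.49 for ECEL1, -3.44 for PDYN, -3.67 for ABCC2 and -3.36 for EDNRA. VWA2 (5.55), MYH2 (4.31), RSPO3 (-6.44) and RAB7B (-5.58) were named for the interaction alone, so their calls follow from how they were chosen. The other genes were chosen by their difference in the same neuroectoderm libraries, so their interactions are not a second test of it. The values of VWA2, RSPO3 and RAB7B rest on groups with no counts, so their size is not a measurement. None of the 36 genes examined had 1 replacement library standing apart from the other 5 in CPM.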

How the results depend on the processing

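The counts against HAR123-KO stayed within 1.5 times under each alternative run. Under DESeq2, 7 genes were higher and 7 lower in mHAR123 than in cHAR123 (22 and 33 with edgeR), and 40 were lower in the replacements than in hHAR123 (79 with edgeR), and the cause was not tested. HIC1, which was not called, changed sign from -0.03 to 0.023 with mHAR123 libraries alone. When 1 library was left out it lay between -0.161 and 0.069, on either side of 0 (0.069 without HAR123-KO replicate 1). The 24 genes with the largest differences kept their call and direction under every alternative run. Numbers of replicates do not pair these libraries. With the replicate block, 753 genes were higher and 779 lower in the replacements than in HAR123-KO, and no call of the 24 genes with the largest differences changed. With cHAR123 libraries alone, 785 were higher and 828 lower, and with mHAR123 libraries alone 750 and 799. Counts were from 717 to 779 higher and 741 to 805 lower when 1 library was left out. Genes under about 1 CPM rest on few counts, and for those near 0 in hESCs the interaction has little precision.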
